A study of Mus musculus with 18 samples.

Results

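The D-type cyclins Ccnd1, Ccnd2 and Ccnd3, their kinase partners Cdk4 and Cdk6, and the CDK inhibitors Cdkn1a, Cdkn1b, Cdkn2a, Cdkn2b and Cdkn2c are described here across islets of obese and lean mice. These 10 genes were taken from a fixed list of names, each measured by its own transcript cluster, the set of array probes assigned to that gene, out of 22180 genes with a cluster of their own. All 10 were found, each with 1 cluster, and all 10 passed the filter on dim genes that left 15526 genes to be tested. Gene expression was measured on Affymetrix arrays in hand-picked pancreatic islets. The obese groups were C57BL/KsJ db/db mice, which carry a defective leptin receptor, and C57BL/6J ob/ob mice, which lack leptin. The controls were lean mice labelled as C57BL/KsJ control or C57BL/6J control, and are called lean KsJ and lean 6J below. Every group was sampled at 6 and at 16 weeks of age. The larger deposited table held 16 arrays, 2 for each of 8 groups, and a smaller table held 1 further lean KsJ array and 1 further db/db array of 16 weeks. The series title names diabetes-prone and diabetes-resistant obese mice and asks about beta cell compensation and failure. Both mutations affect the whole animal, and the strain differs between the models, so genotype effects in KsJ and 6J mice were compared only as differences from the lean mice of the same strain. Whether replicate arrays hold different animals, pools or repeats of 1 extract is not in the labels, so the p-values measure only the spread between these samples.

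D-type cyclins bind Cdk4 or Cdk6 in G1, the phase before DNA replication, and the active kinase phosphorylates the retinoblastoma protein, which releases E2F transcription factors and lets the cell enter S phase. The INK4 inhibitors (Cdkn2a encoding p16, Cdkn2b encoding p15, Cdkn2c encoding p18) bind Cdk4 and Cdk6 directly, whereas the CIP/KIP inhibitors (Cdkn1a encoding p21, Cdkn1b encoding p27) bind cyclin-kinase complexes and act mainly on Cdk2. In rodent islets Ccnd2 and Cdk4 are needed for the growth of beta cell mass after birth, p16 accumulates with age, and p21 is a classical target of p53 and a marker of stress and senescence.

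Cdkn1a is the gene on which the results below turn, and the bases before its start sites are shown for that reason. RefSeq (GRCm38.p6) gave start sites for 8 of the 10 members, in 12 windows of 250 upstream bases, and Ccnd1 and Ccnd2 were not in that table. Cdkn1a lies on chromosome 17 from 29090979 to 29100722 and has 2 windows, whose starts are 2790 bases apart. Window 1 is chr17:29090729-29090978 and window 2 is chr17:29093519-29093768, both on the plus strand. Capitals mark a pair of adjoining p53 decamers with at most 1 mismatch to the consensus, searched on both strands.
Cdkn1a window 1: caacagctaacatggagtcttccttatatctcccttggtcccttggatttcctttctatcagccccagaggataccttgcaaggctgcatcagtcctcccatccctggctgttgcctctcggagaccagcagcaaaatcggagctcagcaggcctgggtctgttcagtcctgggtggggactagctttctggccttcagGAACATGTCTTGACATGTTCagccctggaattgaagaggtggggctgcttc
Cdkn1a window 2: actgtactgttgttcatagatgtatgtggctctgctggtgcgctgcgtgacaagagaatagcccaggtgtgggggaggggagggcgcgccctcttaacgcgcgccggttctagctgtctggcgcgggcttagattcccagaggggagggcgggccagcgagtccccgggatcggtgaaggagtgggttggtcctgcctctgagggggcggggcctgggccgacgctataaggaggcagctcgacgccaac
The pair stood in window 1, from -51 to -32 relative to the start, and was not found in window 2. Such a pair was found in 25 of 32817 windows of all genes (0.0762%), and a single decamer with no mismatch in 7.12%. The left member of the pair is itself counted as a single site, and window 1 held 1 more at -73 to -64. Of the other members, Cdk4 had the E-box CACGTG, the core to which Myc can bind, at 4 places in its window on chr10:127063285-127063534, and Cdk6 had it once, against 6.02% of all windows with at least 1. Cdkn2a window 1 held 1 of the E2F octamers TTTCCCGC, TTTCGCGC, TTTGCCGC or TTTGGCGC, searched on both strands, which 1.86% of windows held. A match in letters is not evidence of binding, and no binding was measured.

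All values are log2 signals as deposited, so a difference of 1 is a doubling, and levels are compared between groups for 1 gene at a time, never between genes. Hormone genes were high on every array, with Ins2 between 11.60 and 12.20, Gcg between 13.09 and 13.48 and Sst between 12.97 and 13.44. Markers of other cell types varied. The mean of 10 acinar genes ran from 8.03 to 12.71, highest on lean KsJ 16-week replicate 2, and the mean of 10 enterocyte genes ran from 4.57 to 11.01, highest on lean 6J 6-week replicate 2. Xist and Uty differed between the replicates of both lean KsJ groups and of the 6-week lean 6J group, as male and female samples do. All 4 db/db arrays had Xist at 8.46 or above and Uty at 3.60 or below. The acinar-rich lean KsJ array had high Xist (8.90), and replicate 1 of its group low Xist (3.24) and high Uty (7.86). The enterocyte-rich lean 6J array also had high Xist (9.46), and replicate 1 of its group low Xist (4.27). Leaving out a marker-rich array therefore changes the marker level and this sex signal together, and these cannot be told apart. Both 16-week lean 6J arrays had high Xist (9.52 and 9.60). Both ob/ob arrays of 6 weeks had low Xist (3.48 and 2.80) and high Uty (7.25 and 7.61), and both of 16 weeks had high Xist (8.62 and 8.60), so age and this sex signal cannot be told apart in ob/ob islets. Replicates correlated over all genes between 0.90 in lean KsJ at 16 weeks and 0.99 in lean 6J at 16 weeks. The titles carry codes that coincide with strain, so strain and whatever the codes mark cannot be told apart.

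Among the 10 genes, 1 was called in a comparison of obese with lean islets: Cdkn1a rose in db/db islets at 16 weeks. Called means an adjusted p below 0.05 (limma on all 16 arrays, two-sided, Benjamini-Hochberg over all genes tested). In db/db at 6 weeks none of the 10 was called, against 0.0258% of all genes, and 1 had an unadjusted p under 0.05 (8.52% of all genes). In db/db at 16 weeks 1 of 10 was called, against 5.8% of all genes in either direction and 5.32% called higher, and 3 had an unadjusted p under 0.05 (24.5% of all genes). In ob/ob islets none was called at 6 weeks (0.0% of all genes) or at 16 weeks (0.0708%), with 1 under 0.05 unadjusted at each age (6.15% and 16.6% of all genes). The share of 1 in 10 is near the background of the 16-week db/db comparison and is no result about the members as a set. Counts of genes whose 2 obese arrays both lay beyond both lean arrays were also read against all genes: 7 of 10 in db/db at 6 weeks against 49.8%, 3 of 10 in db/db at 16 weeks against 43.2%, 4 of 10 in ob/ob at 6 weeks against 36.8%, and 8 of 10 in ob/ob at 16 weeks against 61.4%. The members' median log2 difference was 0.07 in db/db at 6 weeks, 0.17 in db/db at 16 weeks, 0.00 in ob/ob at 6 weeks and 0.27 in ob/ob at 16 weeks, beside -0.02, 0.18, -0.00 and -0.03 over all genes tested.

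**Figure D1:**
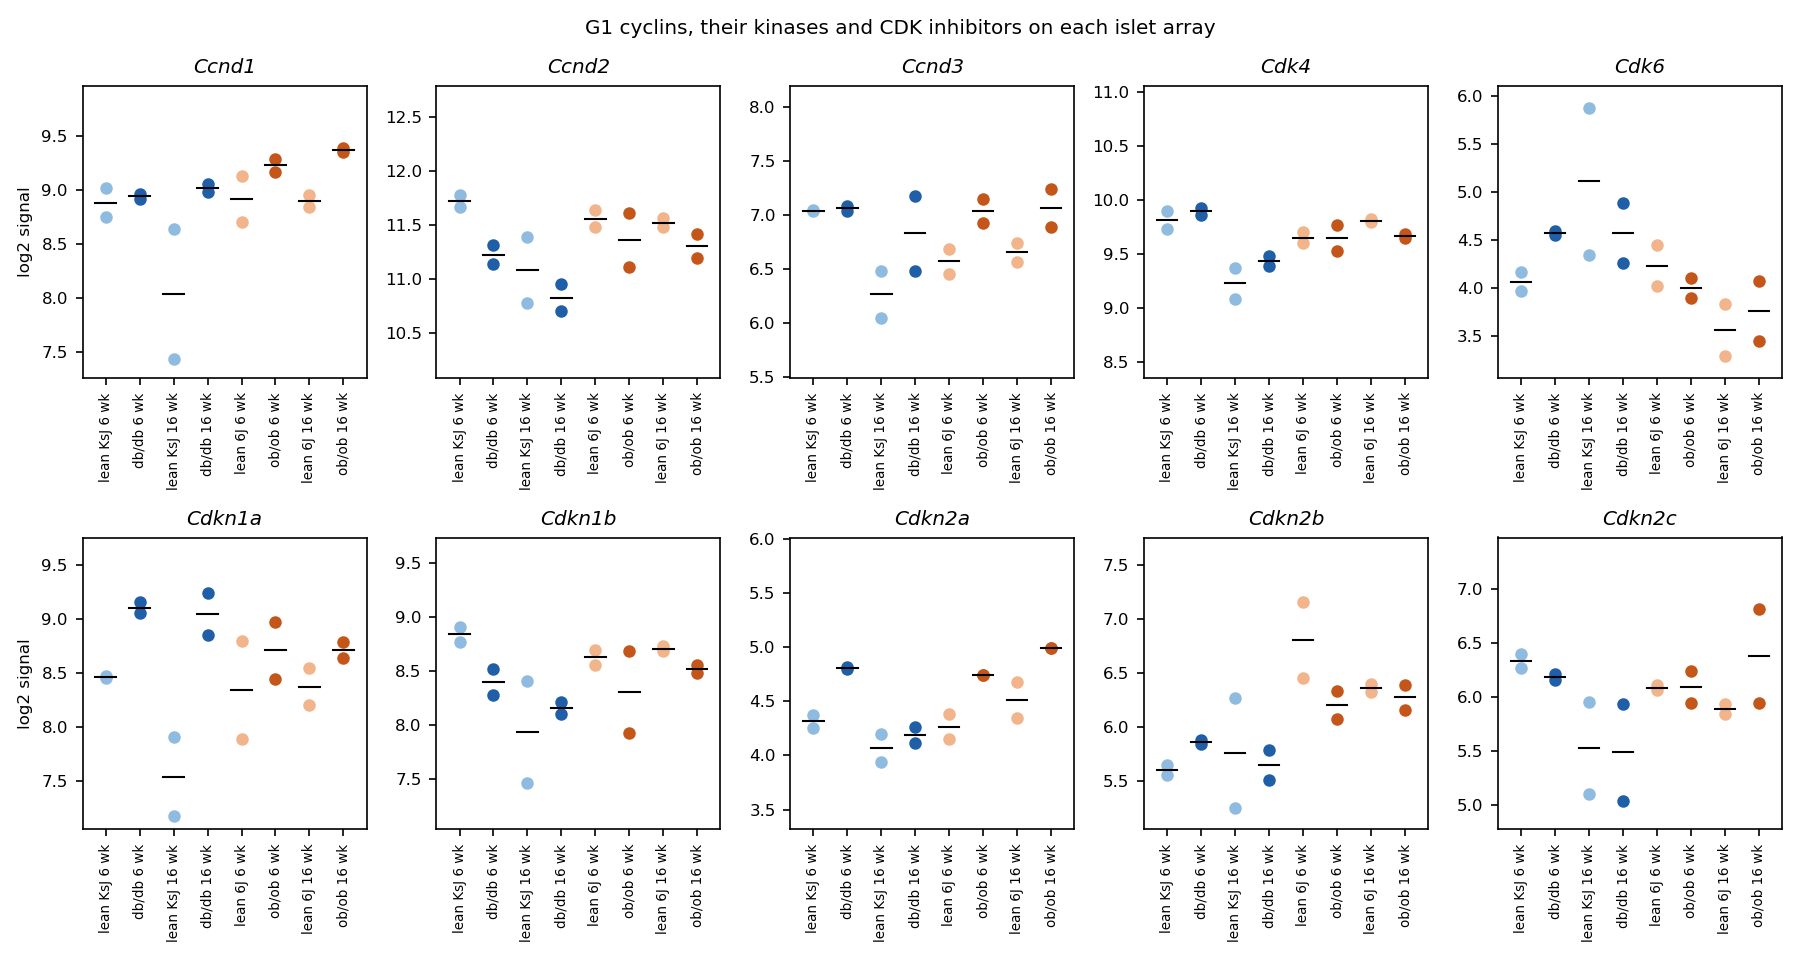
Log2 signal of each of the 10 genes (vertical axes, one panel per gene, each with its own range) on the 16 arrays of the larger table, by group along the horizontal axis. Each point is 1 array, blue for KsJ and orange for 6J, pale for lean and dark for obese, and each bar is the mean of the 2 arrays; lean KsJ 16-week islets have the lowest mean for 6 of the 10 genes, among them Ccnd1 and Cdkn1a.

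Of the D cyclins, Ccnd1 and Ccnd3 stood higher and Ccnd2 lower in the mean of obese islets in each of the 4 obese-to-lean comparisons, but no single difference was called. Ccnd1, the cyclin most often linked to growth factor signals, was at 9.01 and 8.75 in lean KsJ and 8.92 and 8.97 in db/db islets at 6 weeks. At 16 weeks it was at 8.64 and 7.44 in lean KsJ and 9.05 and 8.98 in db/db islets. Both 16-week db/db arrays lay above both lean ones, and the lean arrays were 1.20 apart. The log2 difference in db/db was 0.06 ± 0.31 (SE) at 6 weeks and 0.98 ± 0.31 at 16 weeks, a 1.97-fold ratio with an adjusted p of 0.0865 (limma). Without lean KsJ 16-week replicate 1 the 16-week Ccnd1 difference was 1.58 and called, and without replicate 2, the acinar-rich array, it was 0.38 and not called. Median centring of each array (1.17), both tables joined (0.88), covariates for acinar and enterocyte levels (1.23) and a term for Xist (1.27) also brought Ccnd1 past the threshold. In 6J islets Ccnd1 was at 9.13 and 8.71 in lean and 9.28 and 9.17 in ob/ob mice at 6 weeks, and at 8.85 and 8.96 in lean and 9.39 and 9.35 in ob/ob mice at 16 weeks. The ob/ob arrays lay above the lean arrays at both ages, by 0.31 ± 0.31 and 0.47 ± 0.31, with adjusted p of 0.876 and 0.489, and the first was -0.07 with a term for Xist. In order of group means Ccnd1 was highest in ob/ob islets of 16 and then 6 weeks, and lowest in 16-week lean KsJ islets, and the 6-week db/db, lean 6J and lean KsJ arrays overlapped.

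Ccnd2, the D cyclin on which rodent beta cells mainly rely, had group means from 10.82 in db/db islets of 16 weeks to 11.71 in lean KsJ islets of 6 weeks. At 6 weeks it was at 11.77 and 11.66 in lean KsJ and at 11.31 and 11.13 in db/db islets, with no overlap. That log2 difference was -0.49 ± 0.23 with an adjusted p of 0.597. At 16 weeks the db/db arrays at 10.95 and 10.70 overlapped the lean arrays at 11.39 and 10.77, and the difference was -0.26 ± 0.23. In ob/ob islets Ccnd2 was at 11.11 and 11.61 at 6 weeks and at 11.19 and 11.41 at 16 weeks, against 11.63 and 11.48 and then 11.48 and 11.56 in lean 6J islets. The ob/ob differences of -0.20 ± 0.23 and -0.22 ± 0.23 were smaller than their errors allow to be called. Ccnd2 stood lower in all 4 comparisons under every normalization tried, but its sign turned when single arrays were left out of the 16-week db/db comparison (to 0.05) and of the 6-week ob/ob comparison (to 0.05).

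Ccnd3, the third D cyclin, was at 7.04 and 7.03 in lean KsJ and 7.08 and 7.04 in db/db islets at 6 weeks, a difference of 0.02 ± 0.24 whose sign turned when 1 array was left out. At 16 weeks it was at 6.04 and 6.48 in lean KsJ and 6.48 and 7.17 in db/db islets, where the arrays overlapped narrowly and the difference was 0.56 ± 0.24 with an adjusted p of 0.181. In 6J mice it was at 6.68 and 6.45 in lean and 7.15 and 6.93 in ob/ob islets at 6 weeks, and at 6.56 and 6.74 in lean and 6.89 and 7.24 in ob/ob islets at 16 weeks. The ob/ob arrays lay above the lean arrays at both ages, by 0.47 ± 0.24 and 0.41 ± 0.24, and neither difference was called.

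Cdk4, the kinase that islet growth depends on, was not called in any obese-to-lean comparison, and its replicates lay closest together of the 10 genes (SD within groups 0.11). At 6 weeks it was at 9.73 and 9.90 in lean KsJ and 9.86 and 9.92 in db/db islets, and at 16 weeks at 9.37 and 9.08 in lean KsJ and 9.39 and 9.48 in db/db islets. These differences were 0.08 ± 0.16 and 0.21 ± 0.16, and the second was -0.01 after quantile normalization. In ob/ob islets Cdk4 was at 9.52 and 9.77 at 6 weeks and 9.68 and 9.64 at 16 weeks, beside 9.70 and 9.60 and then 9.82 and 9.79 in lean 6J islets. The differences were -0.00 ± 0.16 and -0.14 ± 0.16. All 4 KsJ arrays of 16 weeks, lean and db/db, lay below all 4 KsJ arrays of 6 weeks.

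Cdk6, the other partner of the D cyclins, was dim and its replicates were the most widely spread (SD within groups 0.48), from 3.29 to 5.87 over the 16 arrays. It was at 3.97 and 4.16 in lean KsJ and 4.60 and 4.55 in db/db islets at 6 weeks, a difference of 0.51 ± 0.43. At 16 weeks it was at 4.34 and 5.87 in lean KsJ and 4.88 and 4.26 in db/db islets, a difference of -0.54 ± 0.43. The value of 5.87 came from the acinar-rich array: with it alone as the lean group the difference was -1.30 and called, and without it 0.22. In lean 6J islets Cdk6 was at 4.02 and 4.44 at 6 weeks and at 3.83 and 3.29 at 16 weeks, and in ob/ob islets at 4.11 and 3.90 and then at 4.07 and 3.44. The arrays overlapped at both ages, and the adjusted p was 0.950 at 6 and 0.875 at 16 weeks.

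Cdkn1a, which encodes p21, rose 2.84-fold in db/db islets at 16 weeks. It was at 7.91 and 7.17 in the lean KsJ arrays and at 8.85 and 9.24 in the db/db arrays, with no overlap. The log2 difference was 1.50 ± 0.32 with an adjusted p of 0.0285 (limma). At 6 weeks Cdkn1a was at 8.45 and 8.47 in lean KsJ and at 9.06 and 9.16 in db/db islets. The groups did not overlap, and the difference of 0.64 ± 0.32 was not called (adjusted p 0.624). The db/db level at 16 weeks differed from that at 6 weeks by -0.06 ± 0.32, whereas the lean KsJ level was 0.92 ± 0.32 lower at 16 than at 6 weeks, a difference that was not called (adjusted p 0.125). In order of group means Cdkn1a was highest in db/db islets of 6 and 16 weeks, whose arrays overlapped, and then in ob/ob islets. Then came 6-week lean KsJ islets and the lean 6J groups, which overlapped, and last 16-week lean KsJ islets. The 6-week ob/ob arrays (8.98 and 8.45) overlapped those of 16-week db/db and of 6-week lean KsJ islets. The 16-week lean KsJ arrays overlapped those of 6-week lean 6J islets (7.89 and 8.79). This order crosses strains and is only a description.

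In 6J mice Cdkn1a was at 7.89 and 8.79 in lean and 8.98 and 8.45 in ob/ob islets at 6 weeks, and at 8.54 and 8.21 in lean and 8.63 and 8.79 in ob/ob islets at 16 weeks. The ob/ob arrays overlapped the lean arrays at 6 weeks and lay above them at 16 weeks. The differences were 0.37 ± 0.32 and 0.34 ± 0.32, with adjusted p of 0.858 and 0.655, and the first turned to -0.08 when 1 array was left out. At 16 weeks the db/db difference exceeded the ob/ob difference by 1.17 ± 0.46, which was not called (adjusted p 0.277). The db/db difference at 16 weeks exceeded that at 6 weeks by 0.86 ± 0.46, which was not called either (adjusted p 0.416).

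The direction of the 16-week Cdkn1a difference in db/db islets was the same in all 28 alternative settings, between 1.14 and 1.87, and the call was lost in 7 of them. Leaving out db/db 16-week replicate 1 gave 1.70 (adjusted p 0.0815), leaving out replicate 2 gave 1.31 (0.135), and leaving out lean KsJ 16-week replicate 2, the acinar-rich array, gave 1.14 (0.113). Without both the acinar-rich and the enterocyte-rich lean array the difference was 1.14 with an adjusted p of 0.0649. Quantile normalization gave 1.20 (0.0818), and with array weights or with the 2 compared groups fitted alone the difference of 1.50 had adjusted p of 0.340 and 0.430. With acinar and enterocyte levels as covariates it was 1.19 (0.0461), and with a term for Xist 1.49 (0.0335). The acinar-rich array was also the lean KsJ 16-week array with high Xist (8.90, against 3.24 in replicate 1).

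**Figure D2:**
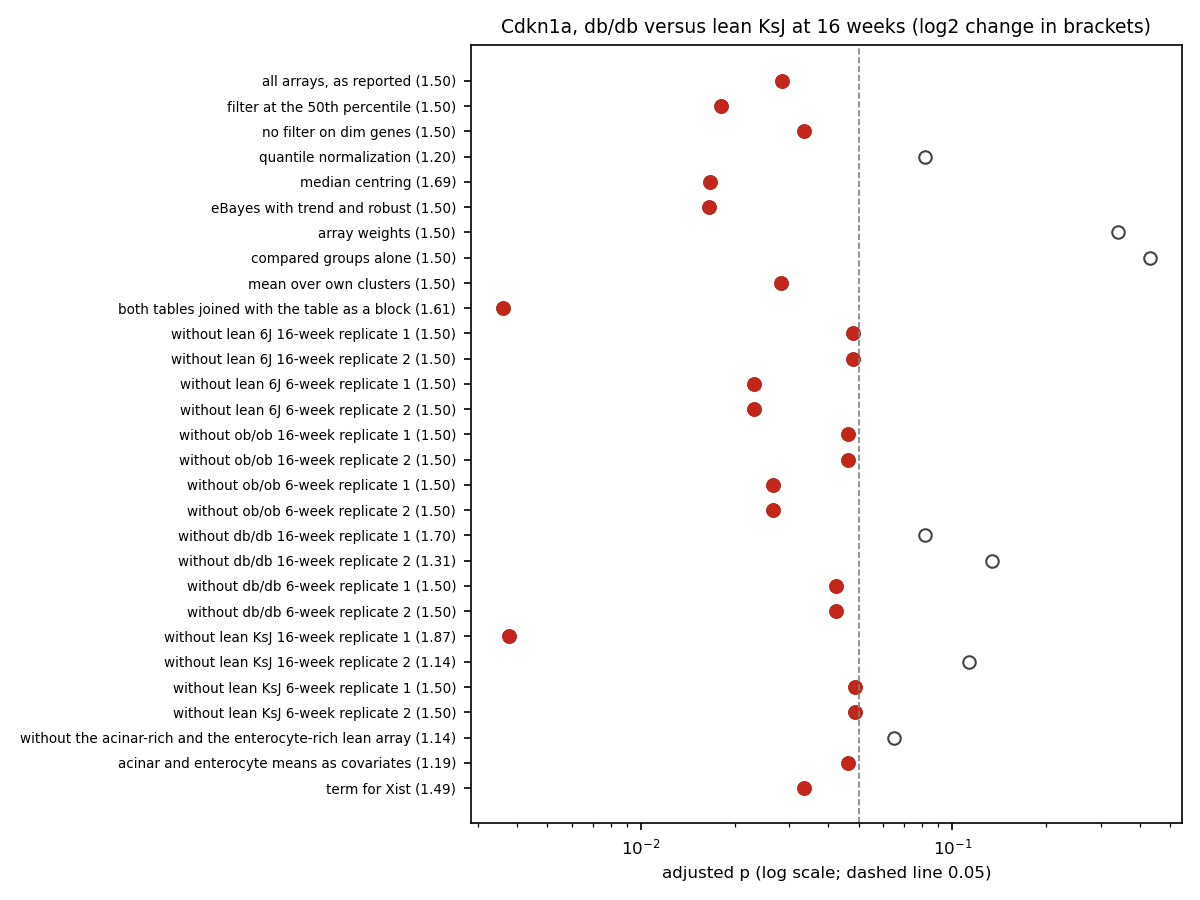
Adjusted p (horizontal log axis, dashed line at 0.05) of the Cdkn1a difference between db/db and lean KsJ islets at 16 weeks under each setting (rows), with the log2 difference in brackets. Filled red points are past the threshold and open points are not: 7 of the 28 alternatives are open, and all differences are positive.

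Markers of several other cell types moved in the same comparison. Of all genes, 5.8% were called there, 5.32% as higher, and 65.7% stood above 0. In 16-week db/db islets all 9 macrophage genes stood above lean and 3 were called, with list means of 6.50 and 6.22 against 5.42 and 4.98. All 9 stellate cell and fibroblast genes stood above lean and 4 were called, with means of 6.24 and 7.54 against 4.93 and 5.33. All 7 endothelial genes did so and 2 were called (7.51 and 7.85 against 7.23 and 6.47). Of the 10 enterocyte genes 1 was called and all stood above lean (6.88 and 9.42 against 4.60 and 6.33), none of the 10 acinar genes was called (10.71 and 11.55 against 10.34 and 12.71), and 1 of 9 beta cell genes was called lower (10.67 and 10.82 against 11.25 and 10.76). Of the lymphocyte genes 2 of 6 tested stood above lean, and of the duct genes 1 of 4, with none called. No macrophage or endothelial marker was below the dim-gene limit of 2.99 in either group. Of the 9 stellate cell and fibroblast markers, 2 were below it in lean KsJ and 0 in db/db islets. Of the cell markers, only the acinar and enterocyte means were used as covariates. The part of macrophage, stellate and endothelial cells in the Cdkn1a difference was not tested. In bulk islets more cells of a type and more RNA per cell cannot be told apart.

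Cdkn1b, which encodes p27, was at 8.77 and 8.91 in lean KsJ and at 8.28 and 8.52 in db/db islets at 6 weeks. The groups did not overlap, and the difference of -0.44 ± 0.30 had an adjusted p of 0.707. At 16 weeks the lean arrays were at 8.40 and 7.46 and the db/db arrays at 8.10 and 8.21, between them. That difference of 0.22 ± 0.30 was -0.08 after quantile normalization and -0.25 without the acinar-rich lean array. In lean 6J islets Cdkn1b was at 8.70 and 8.55 at 6 weeks and 8.68 and 8.73 at 16 weeks, and in ob/ob islets at 7.93 and 8.68 and then 8.56 and 8.48. The ob/ob differences were -0.32 ± 0.30 and -0.19 ± 0.30, and neither was called.

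Cdkn2a, the first of the INK4 genes, lies on chromosome 4 from 89274473 to 89294619, and its locus encodes both p16Ink4a and p19Arf, which the single cluster does not separate. Its signal was dim, from 3.94 to 5.0 over the 16 arrays, where the filter limit was 2.99. In lean KsJ islets of 6 weeks it was at 4.38 and 4.25, and in db/db islets at 4.82 and 4.80. In lean 6J islets of 6 weeks it was at 4.15 and 4.38, and in ob/ob islets at 4.75 and 4.74. At 16 weeks the lean 6J arrays were at 4.68 and 4.34 and the ob/ob arrays both at 5.0. In these 3 comparisons the obese arrays lay above the lean arrays, by 0.50 ± 0.17, 0.48 ± 0.17 and 0.48 ± 0.17, or 1.41-, 1.39- and 1.40-fold. None was called, with adjusted p of 0.537, 0.791 and 0.197 (limma), and array weights brought the third past the threshold (0.0245). In db/db islets of 16 weeks Cdkn2a was at 4.12 and 4.27 against 3.94 and 4.20 in lean KsJ islets, where the arrays overlapped and the difference was 0.12 ± 0.17. From 6 to 16 weeks it was 0.62 ± 0.17 lower in db/db islets, with no overlap, and 0.25 ± 0.17 higher in ob/ob islets, with no overlap but with the Xist signal differing between the ages. The adjusted p of these age differences was 0.336 and 0.9995. The age change of the db/db effect on Cdkn2a was -0.37 ± 0.24 and that of the ob/ob effect 0.01 ± 0.24, neither called.

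Cdkn2b, its neighbour on chromosome 4 from 89306289 to 89311032, had its largest differences between the lean strains. All 6J arrays lay at 6.07 or above and KsJ arrays between 5.25 and 6.26. Lean 6J islets were at 6.45 and 7.15 at 6 weeks and 6.39 and 6.33 at 16 weeks, and lean KsJ islets at 5.65 and 5.56 and then 5.25 and 6.26. The lean KsJ to lean 6J difference was -1.20 ± 0.31 at 6 weeks (2.30-fold lower, adjusted p 0.360) and -0.60 ± 0.31 at 16 weeks (adjusted p 0.211), with no overlap at either age. Neither was called, although the first was called with array weights (adjusted p 0.0271) and without lean 6J 6-week replicate 1 (-1.55, adjusted p 0.0432). The 7.15 came from the enterocyte-rich array, without which the 6-week strain difference was -0.85 and not called. The 16-week strain difference was -0.096 without lean KsJ 16-week replicate 1, and without both marker-rich lean arrays it was -1.11 and called (adjusted p 0.0481). In db/db islets Cdkn2b was at 5.88 and 5.84 at 6 weeks and 5.51 and 5.78 at 16 weeks, differences from lean of 0.26 ± 0.31 and -0.11 ± 0.31. In ob/ob islets it was at 6.07 and 6.34 and then 6.39 and 6.16, differences of -0.60 ± 0.31 and -0.09 ± 0.31. None of these 4 obese-to-lean differences was called.

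Cdkn2c, which encodes p18, was at 6.40 and 6.27 in lean KsJ and 6.16 and 6.21 in db/db islets at 6 weeks, and at 5.95 and 5.10 in lean KsJ and 5.04 and 5.93 in db/db islets at 16 weeks. In 6J mice it was at 6.11 and 6.06 in lean and 5.95 and 6.24 in ob/ob islets at 6 weeks, and at 5.93 and 5.84 in lean and 5.95 and 6.81 in ob/ob islets at 16 weeks. The log2 differences were -0.15 ± 0.35, -0.04 ± 0.35, 0.01 ± 0.35 and 0.49 ± 0.35 in this order. The second was 0.15 after median centring of the arrays, and the last rests on 1 array at 6.81, the other lying just above the higher lean array.

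**Figure D3:**
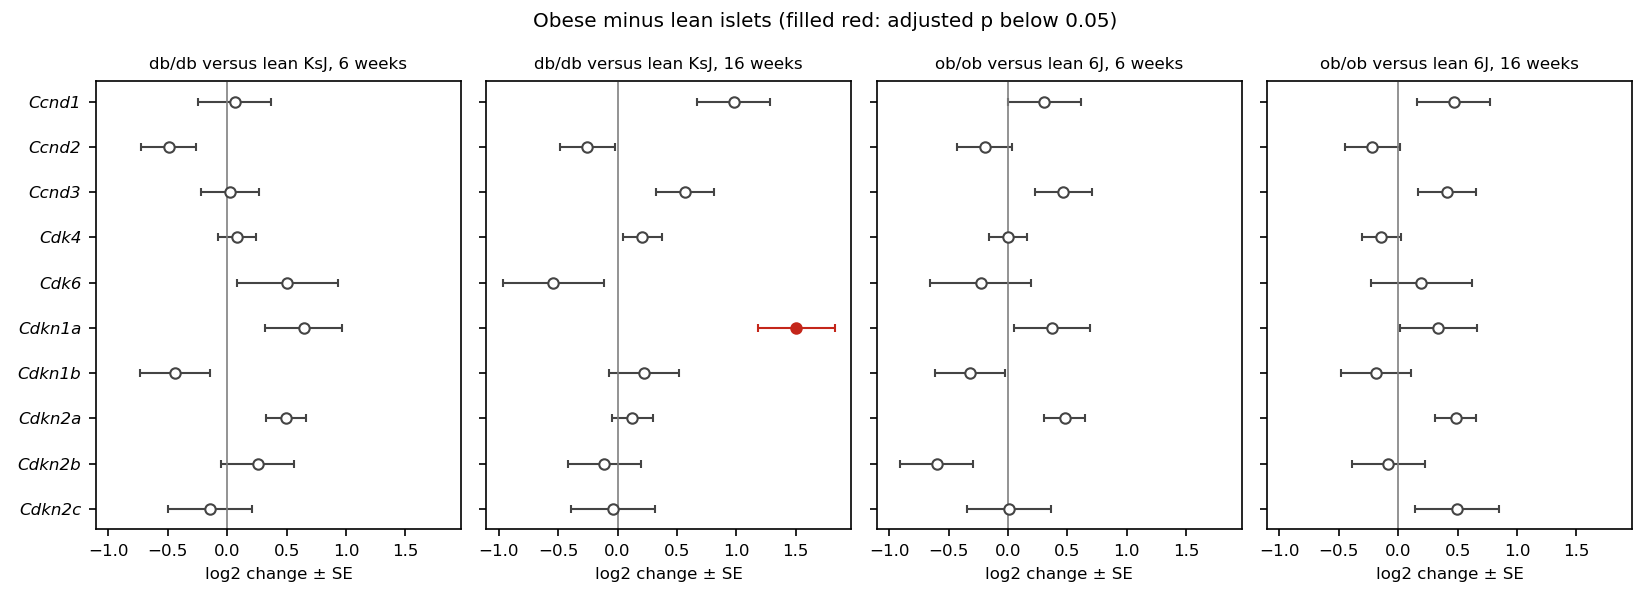
Log2 difference of obese minus lean islets (horizontal axis) for each of the 10 genes (rows) in the 4 comparisons (panels). Points are limma estimates from 2 arrays per group and bars are 1 SE; the filled red point, Cdkn1a at 1.50 in db/db islets of 16 weeks, is the one with an adjusted p below 0.05.

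With age, most of these genes were lower in lean KsJ islets at 16 than at 6 weeks, and none of the differences was called. In that comparison 0.0% of all genes were called, 8 of the 10 members had an unadjusted p under 0.05, as 26.3% of all genes had, and in 8 both older arrays lay below both younger ones, as 44.1% of all genes did. The log2 difference was -0.59 ± 0.16 for Cdk4, which had the smallest adjusted p (0.0922), -0.77 ± 0.24 for Ccnd3, -0.91 ± 0.30 for Cdkn1b and -0.84 ± 0.31 for Ccnd1, while Cdk6 was 1.04 ± 0.43 higher. The members' median was -0.70 beside -0.26 over all genes. Without the acinar-rich array, lean KsJ 16-week replicate 2, the differences were smaller for Cdk4 (-0.44), Cdkn1b (-0.44), Ccnd1 (-0.24) and Cdk6 (0.28) and larger for Ccnd3 (-0.995), and no member was called. With it as the single older lean array the differences were -0.73 for Cdk4, -1.38 for Cdkn1b, -1.44 for Ccnd1, 1.81 for Cdk6 and -0.55 for Ccnd3. In db/db islets none was called (0.0644% of all genes), and Cdk4 was 0.46 ± 0.16 lower at 16 weeks (adjusted p 0.514). In lean 6J islets (0.0% of all genes called) the members' differences lay between -0.67 for Cdk6 and 0.25 for Cdkn2a, and in ob/ob islets (0.0%), whose ages also differ in Xist, between -0.25 for Cdk6 and 0.28 for Cdkn2c, with none called and no unadjusted p under 0.05.

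Tests of the differences between effects called none of the 10 genes. An age change of the db/db effect was called in 0.00644% of all genes and one of the ob/ob effect in 0.0%. The largest age changes of the db/db effect among members were 0.92 ± 0.43 for Ccnd1 (adjusted p 0.386) and -1.05 ± 0.60 for Cdk6 (adjusted p 0.441). Between the models, 0.0% of all genes were called at 6 weeks and 0.0129% at 16 weeks. These tests reuse the lean groups of the comparisons above. Without lean KsJ 16-week replicate 1 the acinar-rich array was the one older lean KsJ array. The age change of the db/db effect was then 1.52 for Ccnd1, and the model difference at 16 weeks was 1.54 for Cdkn1a. Without replicate 2 these were 0.32 and 0.80.

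Between the lean strains, none of the members was called at 6 weeks (0.258% of all genes) or at 16 weeks (4.12%). At 16 weeks 6 members had an unadjusted p under 0.05, as 29.5% of all genes had, and in 8 both lean KsJ arrays lay below both lean 6J arrays, as 44.3% of all genes did. Cdk6 was 1.55 ± 0.43 higher in lean KsJ (adjusted p 0.0611) and Cdk4 0.58 ± 0.16 lower (adjusted p 0.0619). The Cdk6 difference was 0.78 without the acinar-rich lean KsJ array and 2.31 with it as the single lean KsJ array. At 6 weeks the members' differences other than that of Cdkn2b lay between -0.17 for Cdk6 and 0.47 for Ccnd3.

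The smaller table gave 1 lean KsJ and 1 db/db array of 16 weeks on a related design, with no replicate and no test. Cdkn1a was at 7.27 in the lean and 9.08 in the db/db array, 1.81 higher or 3.50-fold, while 8.22% of all genes differed by more than 1 in either direction and the median over all genes was 0.09. It is the one member past that size. Ccnd1 was at 7.96 and 8.65 (0.69 higher), Ccnd2 at 10.34 and 9.69 (0.65 lower) and Cdkn2a at 5.56 and 4.80 (0.75 lower). The remaining differences were between -0.41 for Cdk6 and 0.28 for Cdkn2c. On these arrays the acinar mean was 12.61 in the lean and 11.65 in the db/db sample, and the enterocyte mean 4.47 and 9.69. The means were 5.40 and 6.08 for macrophage, 6.68 and 7.80 for stellate cell and fibroblast, and 6.60 and 7.47 for endothelial genes. The beta cell mean was 10.20 and 9.74. Marker levels thus differed there too, and their part in the Cdkn1a difference was not tested.

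Further genes of the pathway were taken from 5 lists. The first held genes of the passage from G1 to S phase, of which 23 of 24 were tested. It joined E2F factors, the retinoblastoma family, cyclin E and its partners with Cdk7, Skp2, Cks1b and the inhibitors Cdkn1c and Cdkn2d. Its counts and medians therefore mix activators and inhibitors. In db/db islets at 16 weeks 2 of 23 were called, both higher, against 5.8% of all genes, and 17 stood above 0 (73.9%, against 65.7% of all genes), with a median of 0.28 beside 0.18 over all genes. The count of calls was lower in 15 of the 28 alternatives and ran from 0 to 9, and the median fell as low as -0.0041. The called genes were E2f6, a repressor of the E2F family, by 1.06 ± 0.23 (adjusted p 0.0293), and Cks1b, a CDK-binding subunit that helps to degrade p27, by 1.06 ± 0.25 (adjusted p 0.0373). E2f6 was at 6.96 and 6.40 in lean KsJ and 8.0 and 7.48 in db/db islets, and Cks1b at 5.89 and 5.50 in lean and 7.14 and 6.35 in db/db islets. In ob/ob islets of 16 weeks Cks1b measured 6.95 and 6.88, beside 5.65 and 5.95 in lean 6J, a difference of 1.11 ± 0.25 that was not called (adjusted p 0.086). None was called in the other comparisons, where the gene with the smallest p was E2f2 in db/db at 6 weeks (0.98 ± 0.31) and E2f1 in ob/ob at 6 weeks (0.78 ± 0.22). The list medians there were 0.02 in db/db at 6 weeks, 0.21 in ob/ob at 6 weeks and 0.19 in ob/ob at 16 weeks.

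The second list held regulators of the G1 genes, of which 25 of 26 were tested and none was called in any of the 4 comparisons. Id1, an inhibitor of differentiation factors, had the smallest p in db/db at 16 weeks (1.14 ± 0.33, adjusted p 0.0653). Ezh2, the Polycomb enzyme that silences the Cdkn2a locus in young beta cells, had the smallest p in ob/ob at 16 weeks, at 5.94 and 6.27 against 5.43 and 5.45 in lean (0.67 ± 0.17, adjusted p 0.108). Men1, which encodes menin, an activator of Cdkn1b and Cdkn2c, was 0.42 ± 0.17 higher in ob/ob at 6 weeks (adjusted p 0.791), and Cul1 was 0.35 ± 0.14 lower in db/db at 6 weeks (adjusted p 0.571). The medians of this list were -0.03 and 0.03 in db/db at 6 and 16 weeks, and -0.09 and -0.10 in ob/ob.

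The third list held targets of p53 other than Cdkn1a, of which 20 of 23 were tested. In db/db at 16 weeks 1 was called: Phlda3, a p53-induced inhibitor of Akt, at 4.62 and 5.14 in lean KsJ and 6.07 and 5.69 in db/db islets, rose by 1.0 ± 0.24 (adjusted p 0.0373). There 15 of 20 stood above 0, against 65.7% of all genes, with a median of 0.35, and the count of calls was 0 in 15 of the 28 alternatives and at most 6. At 6 weeks 8 of 20 stood above 0 in db/db islets, against 46.9% of all genes. In ob/ob islets 5 of 20 did so at each age, against 49.6% and 47.5%. None was called, and the medians were -0.16, -0.21 and -0.11. Gadd45b had the smallest p in ob/ob islets, with 7.17 and 7.53 against 9.13 and 9.24 in lean 6J at 16 weeks (-1.83 ± 0.51, adjusted p 0.133).

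The fourth list held senescence-associated genes other than the members. Of these 24, 21 had a cluster of their own, and the 16 that passed the filter on dim genes were tested. In db/db at 16 weeks 3 of 16 rose, against 5.32% of all genes called higher, and 13 stood above 0, against 65.7% of all genes, with a median of 0.85. The list was not sorted by the direction its genes take in senescence, so this count and median measure no direction of senescence. The count of calls ran from 0 to 6 over the alternatives. Igfbp3, an IGF-binding protein, was at 7.58 and 6.39 in lean KsJ and 9.30 and 9.19 in db/db islets. That rise was 2.26 ± 0.39 (limma adjusted p 0.0178). At 6 weeks Igfbp3 was at 8.34 and 8.20 in lean KsJ and 8.95 and 9.30 in db/db islets. In ob/ob islets of 16 weeks it was at 9.21 and 9.37, beside 7.98 and 8.10 in lean 6J. At 6 weeks the ob/ob arrays (9.12 and 8.03) overlapped the lean 6J arrays (8.28 and 7.72). Mmp12, a macrophage elastase, was at 4.14 and 4.07 in lean and at 7.70 and 5.52 in db/db islets, a rise of 2.51 ± 0.51 (adjusted p 0.0257), with the db/db arrays 2.18 apart. Timp2, an inhibitor of metalloproteinases, rose by 1.26 ± 0.29 (adjusted p 0.0353). The macrophage and stellate cell markers given above were higher on the same arrays. No gene of the list was called at 6 weeks in db/db islets, where Plaur, the urokinase receptor, was at 3.57 and 3.69 in lean and 5.59 and 6.67 in db/db islets (2.50 ± 0.73, adjusted p 0.516). In ob/ob islets none was called and the medians were -0.05 and -0.00.

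The fifth list held genes of S and M phase, which run when cells replicate, of which 22 of 24 were tested. No gene was called in any of the 4 obese-to-lean comparisons (limma). An unadjusted p under 0.05 was found for 2 in db/db at 6 weeks, 1 in db/db at 16 weeks and 0 in ob/ob at 6 weeks. Over all genes the shares were 8.52%, 24.5% and 6.15% in this order. In ob/ob at 16 weeks all 22 stood above 0, against 47.5% of all genes, with a median of 1.07. There 15 had an unadjusted p under 0.05, as 16.6% of all genes had, while the alternatives called 0 to 16 of the 22. Tpx2, a spindle assembly factor, measured 5.79 and 6.67 there, beside 4.66 and 4.48 in lean 6J (1.66 ± 0.32, adjusted p 0.067). Cell markers moved in that comparison too, with none called. All 10 acinar genes (median 1.13) and all 7 endothelial genes (0.30) stood above lean. So did 4 of 9 macrophage, 3 of 9 stellate cell and fibroblast, 3 of 9 beta cell and 0 of 3 delta cell genes. Their part in the list's difference was not tested. In db/db at 6 weeks all 22 genes of the list stood above 0, against 46.9% of all genes, with a median of 0.49. In ob/ob at 6 weeks 19 did, against 49.6%, with a median of 0.29. In db/db at 16 weeks 12 did (54.5%), against 65.7% of all genes, with a median of 0.12 beside 0.18 over all genes. The 6-week ob/ob median was -0.11 without ob/ob 6-week replicate 1 and 0.58 without replicate 2, and the 16-week db/db median was -0.11 without the acinar-rich lean array. With age, 1 of 22 was called in db/db islets, against 0.0644% of all genes: Tpx2, named after its values were seen. Tpx2 was 2.21 ± 0.32 lower at 16 than at 6 weeks (limma adjusted p 0.0448). The list's median with age was -1.32 in db/db, -0.89 in lean KsJ and -0.58 in lean 6J islets. Over all genes these medians were -0.015, -0.26 and 0.04. In ob/ob islets, whose ages also differ in Xist, the list's median was 0.10, beside -0.01 over all genes. In lean 6J islets Xist was low (4.27) in 6-week replicate 1 and high on the other arrays. Outside db/db no gene of the list was called with age. The age change of the db/db effect had a list median of -0.41 and that of the ob/ob effect 0.66, with none called. Mki67, the usual marker of cycling cells, was at 4.92 and 4.66 in db/db and 5.08 and 3.90 in lean KsJ islets at 16 weeks, and at 6.01 and 7.03 in ob/ob and 4.52 and 5.41 in lean 6J islets.

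Of the 28 alternatives, Phlda3 and Timp2 lost their 16-week db/db call in 16 each, Cks1b in 14, E2f6 in 9, Igfbp3 in 6 and Mmp12 in 5. Each of these genes lost it with array weights, with the compared groups alone and without the acinar-rich lean array. The difference of E2f6 was 0.78, of Cks1b 0.86, of Phlda3 1.26, of Igfbp3 1.66, of Mmp12 2.48 and of Timp2 0.83 without that array. Without db/db 16-week replicate 1 Cks1b was at 0.66 and Mmp12 at 1.42, neither called.

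**Figure D4:**
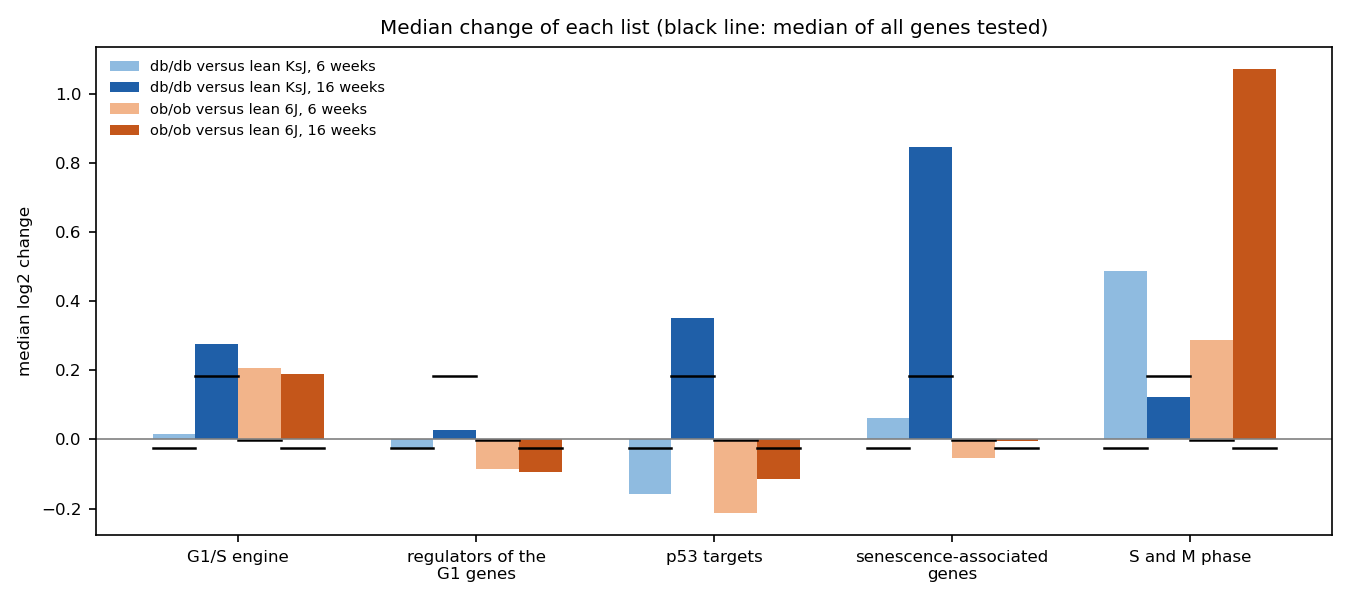
Median log2 difference of obese minus lean islets (vertical axis) over the tested genes of each of the 5 lists (horizontal axis), coloured by comparison, with a black line at the median of all 15526 genes tested. The S and M phase list is highest in ob/ob islets of 16 weeks (1.07) and the senescence-associated list in db/db islets of 16 weeks (0.85).

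The genes whose levels over the 16 arrays were most like those of each member, among 14305 named genes tested, are given as a description, since 16 arrays share groups and a best match is picked for its size. Cdkn1a was most like Card19 (Pearson r 0.94, Spearman rho 0.93) and Tagln2 (r 0.94, rho 0.90), and Ccnd1 most like Mrgpre (r 0.98, rho 0.93) and Rnf130 (r 0.97). Ccnd2 was nearest to Fhdc1 and Zfp282, Ccnd3 to AI837181 and Mfsd5, Cdk4 to Eid2 and Robo4, and Cdk6 to Mirt1 and Smco4. Cdkn1b was nearest to Mmab and Ttc5, Cdkn2a to Ddt and Ift27, Cdkn2b to Ghrl, the ghrelin gene (r 0.90), and Acadl, and Cdkn2c to Bcl7b and Vamp5. The lowest of these r was 0.86, for Ift27, and without the 2 arrays farthest from the median r for Cdkn2c and Bcl7b fell from 0.90 to 0.65. Between members r was highest for Ccnd2 and Cdkn1b (0.83) and for Cdk4 and Cdkn1b (0.80), and lowest for Ccnd1 and Cdk6 (-0.75). The acinar-rich lean KsJ array had the lowest value of Ccnd1, Cdk4 and Cdkn1b and the highest of Cdk6. These r between members were not recomputed without it.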

How the data were processed

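The values used were log2 signals per transcript cluster as the authors deposited them. MAS5, RMA and Partek are named in the submitters' processing notes, without version or role, and the sources used here do not give the build or the order of steps. There were 41034 clusters per table, 23521 annotated with 1 gene, 1814 with several and 15699 with no row in the annotation used. The cluster of highest mean was kept per gene, and genes under the 30th percentile of the mean (2.99) were left out. limma 3.58.1 in R 4.3.3 fitted 8 group means over 16 arrays (8 residual degrees of freedom, eBayes, two-sided, Benjamini-Hochberg). The fit was tested on simulated data. The smaller table was kept apart, except in 1 alternative with the table as a block. The members, lists and comparisons were chosen with earlier results of these data known. Members are named with their values on every array, and per list and comparison up to 3 called genes of smallest p, or else the gene of smallest p, and per member its 2 most correlated genes. Replicates are numbered in accession order. Of the settings tried, the removal of both marker-rich lean arrays, the acinar and enterocyte covariates and the term for Xist were chosen after seeing the data. Genes of the lists with no cluster of their own, such as Trp53, Bax, Gadd45a and Ccne2, were not analysed here.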

Additional observations from a re-analysis of the deposited data

Results flagged for a closer look

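For Cdk4 at 16 weeks both db/db arrays lay above both lean KsJ arrays (0.21) and both ob/ob arrays lay below both lean 6J arrays (-0.14). The db/db effect exceeded the ob/ob effect by 0.35 ± 0.23 (SE) on the log2 scale, and the test of that difference did not pass (limma, adjusted p 0.438).

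For Cdkn2b at 6 weeks both db/db arrays lay above both lean KsJ arrays (0.26) and both ob/ob arrays lay below both lean 6J arrays (-0.60). The db/db effect exceeded the ob/ob effect by 0.85 ± 0.43, and the test did not pass (limma, adjusted p 0.9995). The higher lean 6J value, 7.15, came from the array with the highest enterocyte markers, lean 6J 6-week replicate 2. Without that array the ob/ob effect was -0.25 and the difference between the effects 0.50, and with a term for Xist that difference was 0.36.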

How the results depend on the processing

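The count of members called in 16-week db/db islets, 1 as reported, was 0 with quantile normalization, array weights, the compared groups alone and without both marker-rich lean arrays, 2 with median centring, the joined tables, the marker covariates and the Xist term, and 0 to 3 when single arrays were left out. A lone array left in a group is assumed to vary like the others. For 16-week ob/ob it was 1 with array weights. With single arrays left out it was 0 to 7 for age in lean KsJ, 0 to 3 for the age change of the db/db effect, 0 to 3 for the model difference at 16 weeks, 0 to 1 for the strains at 6 weeks (1 with array weights) and 0 to 6 at 16 weeks. The strain count at 16 weeks was 1 with the 50th-percentile filter, trend and robust eBayes and without both marker-rich arrays, and 3 with median centring and the Xist term. Over all genes, the 900 calls in 16-week db/db became 0 with array weights and 2084 with the joined tables, and 43 to 4687 without single arrays. The 11 calls in 16-week ob/ob became 0 with quantile normalization and 2969 with array weights, and the 639 for the strains at 16 weeks became 0 with the compared groups alone and 2562 with the Xist term. The cause was not tested. Quantile normalization moved the median of all genes in 16-week db/db from 0.18 to 0.05, and median centring moved it to 0.37.

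Signs turned for differences that were not called. Without single arrays the 6-week db/db difference ran from -0.071 to 0.19 for Ccnd1, -0.0003 to 0.048 for Ccnd3 and -0.0051 to 0.17 for Cdk4. The 16-week db/db difference ran from -0.56 to 0.052 for Ccnd2, -1.30 to 0.22 for Cdk6, -0.25 to 0.70 for Cdkn1b, -0.0066 to 0.25 for Cdkn2a, -0.62 to 0.39 for Cdkn2b and -0.49 to 0.40 for Cdkn2c. The 6-week ob/ob difference ran from -0.44 to 0.051 for Ccnd2, -0.13 to 0.12 for Cdk4, -0.083 to 0.83 for Cdkn1a, -0.70 to 0.060 for Cdkn1b and -0.14 to 0.16 for Cdkn2c, and the 16-week one from -0.12 to 0.51 for Cdk6 and -0.20 to 0.028 for Cdkn2b. Quantile normalization gave -0.0081 for Cdk4 and -0.081 for Cdkn1b in 16-week db/db and 0.0058 for Cdk4 in 6-week ob/ob. Median centring gave 0.076 for Cdkn2b and 0.15 for Cdkn2c in 16-week db/db and 0.045 for Cdk4 in 6-week ob/ob. The joined tables gave -0.17 for Cdkn2a and 0.066 for Cdkn2c. Without both marker-rich arrays Cdk6 was 0.22, Cdkn1b -0.25 and Cdkn2b 0.39 in 16-week db/db, and Cdkn2c -0.012 in 6-week ob/ob. The Xist term gave 0.02 for Cdkn2c in 6-week db/db, 0.14 for Cdkn2c in 16-week db/db, and -0.068 for Ccnd1, 0.22 for Cdk6 and -0.23 for Cdkn2c in 6-week ob/ob. The covariates gave -0.11 for Cdk6 and 0.037 for Cdkn1b in 16-week ob/ob. No paired analysis was possible because the labels give no replicate numbers. With 2 arrays per group the number of arrays limits the precision.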
